A study of Mus musculus with 4 samples.

Results

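Transcripts of the vesicle traffic machinery were compared between extraembryonic endoderm (XEN) cells and embryonic stem (ES) cells of the mouse. The genes were those whose probe sets carried a single symbol of the Rab, Arf, Sec, Cop, Snx, Vps, Stx, Vamp, adaptor subunit (Ap1 to Ap4), Tmed, Lman, Ssr or Srp families. One probe set stood for each gene, the one with the highest mean signal over the 4 arrays. This gave 155 genes out of 8251 with a single symbol on the array, covered by 212 probe sets. By their known sites of action 66 were assigned to the secretory route, 71 to the endocytic route and 18 to both or neither. No somatostatin receptor was among the Ssr genes.

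Total RNA of 4 cultures was hybridised to Affymetrix MG_U74Av2 arrays, with 1 array per culture. XEN lines are stem-like cells of the primitive endoderm lineage, grown from the blastocyst. Their group held 3 cultures of 2 lines. IM8A1-I and IM8A1-II were both the IM8A1 line (PO strain) at passage 27. IM8A1-I was kept on gelatin in a medium labelled 70% EMFI-CM. IM8A1-II spent 4 days on plastic, in RPMI 1640 medium supplemented with 20% FBS. XEN1-3 was a second line (ICR strain) at passage 18, on gelatin in 70% EMFI-CM. ES cells were represented by a single culture of the R1 line, undifferentiated, on gelatin with LIF, a cytokine that keeps such cells undifferentiated.

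Proteins that are to be secreted, or that sit in membranes, enter the endoplasmic reticulum (ER) through the Sec61 channel. They leave it in vesicles with a COPII coat, and vesicles with a COPI coat carry material back from the Golgi and between its cisternae. Uptake runs the other way, by clathrin-coated pits into early endosomes, and from there cargo is recycled or passed on to late endosomes and lysosomes. Rab and Arf GTPases mark the membranes, adaptors and coats select cargo, and SNAREs (the Stx, Vamp and some Sec proteins) fuse vesicle and target. In the embryo the extraembryonic endoderm secretes basement membrane, and its visceral part takes up and digests maternal protein.

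Signal is in arbitrary units, and the values of one probe set cannot be set against those of another. Differences are XEN minus ES on the scale of log2(signal + 10.5 units), which understates the change of dim genes. A probe set was tested if it reached 27.3 units, the 40th percentile of all values, on at least 1 array, and 142 of the 155 genes did so. The 13 that did not were Vamp1, Rab20, Rab17, Sec24b, Vps37a, Rab33a, Tmed8, Ap2s1, Rab35, Vamp5, Rab3b, Ssr4 and Ap1s2. A gene may have been tested only because 1 group was bright, so the counts below cover the genes that were tested and not all members. Where 3 XEN values stand together they are, from left to right, those of cultures IM8A1-I, IM8A1-II, XEN1-3. A limma fit over 8582 probe sets gave the p-values, two-sided and adjusted by the Benjamini-Hochberg method, with a threshold of 0.05.

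Markers of the labelled cell types were on the side their labels give. All 8 ES cell markers were lower in XEN, with summed signals of 69.9 to 76.4 units in XEN against 20959 units in ES. All 8 extraembryonic endoderm markers were higher, with sums of 15432 to 19994 units in XEN against 293 units in ES. Of 15 fibroblast markers 10 were tested, with 0 higher in XEN and 1 lower by limma, and of 8 trophoblast markers 6 were tested, with 0 higher and 2 lower. The sums were 826 to 945 units in XEN against 1259 units in ES for the fibroblast markers. For the trophoblast markers they were 92.3 to 120 units in XEN against 1003 units in ES. In ES, Tfap2c alone read 767 units, while Esrrb, which is also an ES cell gene, read 48 units. The part of fibroblasts or trophoblast cells in the results was not tested. The XEN arrays and the ES array came from different chip lots, so chip lot and the type of cell cannot be told apart. The run record of XEN1-3 carried a message on the fluidics, and that of IM8A1-II the unexplained letters DIFF. The ratio of 3' to 5' control signals was 0.958 to 1.08 in XEN and 1.03 in ES for Gapdh, and 1.22 to 1.24 in XEN and 1.26 in ES for actin.

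Among the 142 tested traffic genes, 12 were higher in XEN and 1 was lower. The 12 were 8.45% of the members, beside 5.58% of all tested probe sets called higher. The single fall was 0.704% of the members, beside 5.05% of all probe sets called lower. At an unadjusted p under 0.05, 46 members were higher (32.4%, beside 15.1% of all tested probe sets) and 2 were lower (1.41%, beside 14.5%). All 3 XEN arrays lay above the ES array for 88 members (62.0%, beside 39.0% of all tested probe sets) and below it for 14 (9.86%, beside 34.0%), while the remaining 40 overlapped. The median log2 difference of the members was 0.42, with the middle 50% of the genes between 0.01 and 0.96, and that of all tested probe sets was 0.05. In bulk RNA, fewer cells expressing a gene and less RNA per cell cannot be told apart.

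The number of called genes depended on which XEN cultures were in the fit. Without IM8A1-I, 2 members were called higher, 1.42% beside 2.24% of all probe sets. They were Tmed3 and Vamp8, which were also called in each of the 10 alternative fits. Without IM8A1-II there were 4 (2.82%, beside 2.78% of all probe sets), with Vps37b and Vps37c as the additional genes. Without XEN1-3 there were 23 (16.3%, beside 9.48%), and all 13 members called with the 3 cultures were among the 24 called in either direction. Sec14l1 was called lower without XEN1-3 and in neither of the other such fits. IM8A1-I and IM8A1-II are the same line, and with each line counted once 6 members were higher (4.23%, beside 4.06% of all probe sets) and 0 lower. The 6 were Tmed3, Vamp8, Vps37b, Vps37c, Rab11fip5 and Sec62, while Copa, Sec63, Snx12, Stx5a, Stx7, Rab3il1 and Sec14l1 lost their calls. By the RefSeq gene table (GRCm38.p6) the 13 genes lay on 9 chromosomes, with Stx5a, Rab3il1 and Vps37c on chromosome 19, Vamp8 and Rab11fip5 on chromosome 6, and Sec63 and Stx7 on chromosome 10.

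**Figure D1:**
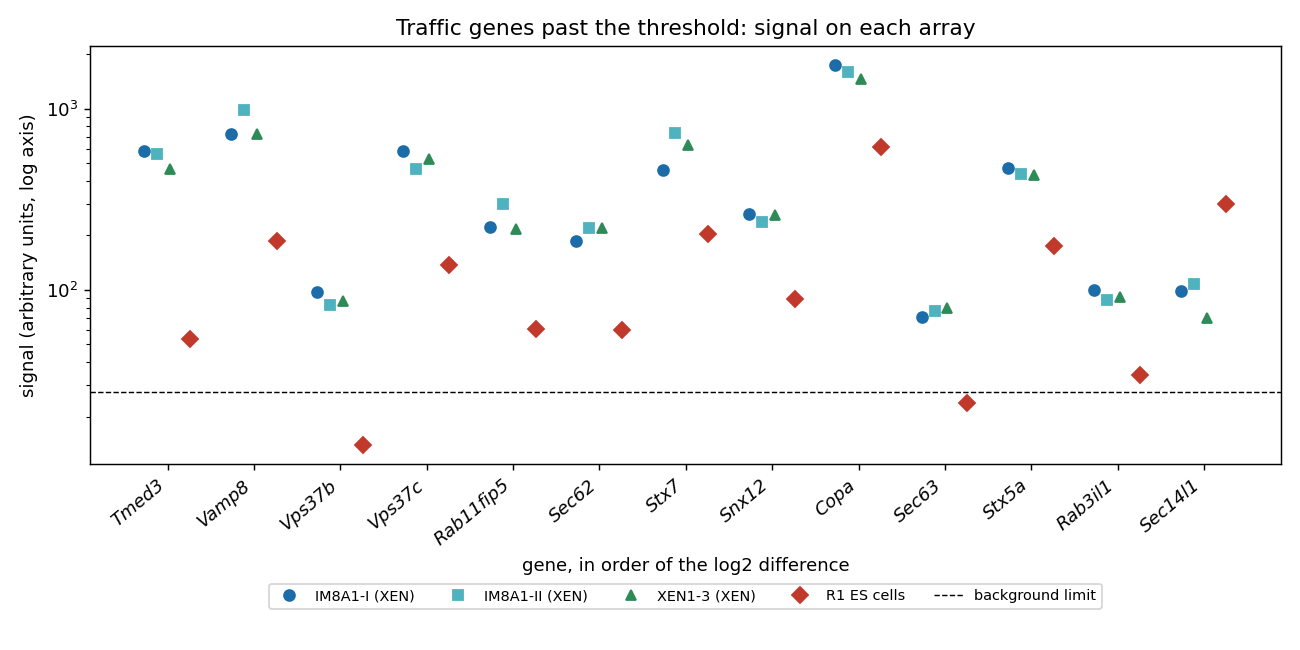
Signal of the 13 traffic genes past the threshold on each of the 4 arrays, in arbitrary units on a log axis, with the 3 XEN arrays on the left of each gene and the ES array on the right. The dashed line is the background limit of 27.3 units. The XEN symbols lie above the ES diamond for 12 genes and below it for Sec14l1, and Vps37b and Sec63 lie under the limit in ES.

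At the entrance of the secretory route, 15 of 16 genes of ER translocation were tested, with a median log2 difference of 0.24. Limma called 2 higher in XEN (13.3%, beside 5.58% of all tested probe sets) and 0 lower (beside 5.05%). Sec62, a partner of the Sec61 channel, read 186, 220 and 220 units in XEN, against 59.8 units in ES. The XEN arrays were close to each other and well apart from ES, with a log2 difference of 1.64 ± 0.27 (SE; limma adjusted p = 0.0234). Its other probe sets did not pass, at 0.78 and -0.26. Sec63, which recruits the ER chaperone BiP to the channel, read 71.3, 76.2 and 79.5 units in XEN, against 23.8 units in ES, which is under the limit. It was at least 2.77-fold higher in XEN (limma adjusted p = 0.0414). The XEN arrays again lay close together.

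Of the channel itself no subunit passed the threshold on its brightest probe set. Sec61a1, the main pore subunit, had 2316, 1626 and 1875 units in XEN, against 837 units in ES. The groups did not overlap, but the difference of 1.19 ± 0.30 missed the threshold (limma adjusted p = 0.0601). A second probe set for Sec61a1 was called higher, at 1.56 (limma adjusted p = 0.0266). The paralog Sec61a2 had a log2 difference of -0.23 and the small subunit Sec61b one of -0.05, and differences between subunits were not tested. Sec11a, a catalytic subunit of the signal peptidase, stood just outside the threshold at 1.10 (limma adjusted p = 0.0513).

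The signal recognition particle, which brings ribosomes to the ER, lay nearer to 0. Its 5 tested genes had a median of 0.12, with 0 called by limma. At an unadjusted p under 0.05 there were also 0, beside 15.1% of all tested probe sets higher and 14.5% lower. Srp54b has near-identical copies in the mouse genome, so its value is uncertain. The translocon-associated complex, which sits beside the channel, had a median of 0.24 over 3 tested genes. Its subunit Ssr3 had a difference of 0.62 on the brightest probe set, which did not pass, but 2 dimmer probe sets were called higher.

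COPII, the coat of vesicles leaving the ER, had 7 tested genes. Limma called 0 of them. Before adjustment 1 was higher (limma p under 0.05, 14.3%, beside 15.1% of all tested probe sets) and 0 were lower (beside 14.5%). The coat's Sec23 paralogs differed in direction on their brightest probe sets. Sec23a of the inner layer read 837, 979 and 1083 units in XEN, against 493 units in ES, a difference of 0.95 ± 0.28 (limma adjusted p = 0.0851). A dimmer Sec23a probe set was called higher, at 2.06 (limma adjusted p = 0.0134). Sec23b read 217, 234 and 271 units in XEN, against 347 units in ES. On these brightest probe sets all 3 XEN arrays lay below ES for Sec23b and above it for Sec23a. A dimmer Sec23b probe set read 56.7, 54.6 and 41.0 units in XEN, against 23.8 units in ES. Its difference of 0.83 did not pass, and the probe sets for Sec23b thus disagree in direction. The difference between the paralogs was not tested. Sec16a, the scaffold of ER exit sites, had a log2 difference of -0.38, and all 3 XEN arrays lay above ES for 5 of the 7 tested genes (beside 39.0% of all tested probe sets) and below it for 2 (beside 34.0%).

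The cargo receptors of the early route all lay on the same side on their brightest probe sets. All 6 tested genes had every XEN array above ES, beside 39.0% of all tested probe sets. All 6 were higher at an unadjusted p under 0.05, beside 15.1% of all, and the median log2 difference was 1.08. Only Tmed3 passed the threshold. Tmed3, a member of the p24 family, read 582, 563 and 465 units in XEN, against 53.7 units in ES. Its log2 difference of 3.08 ± 0.28 (limma adjusted p = 0.00567) was the largest among the members.

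The other p24 proteins did not pass. Tmed9 read 217, 375 and 426 units in XEN, against 110 units in ES, a difference of 1.49 with wide spread in XEN (limma adjusted p = 0.0810). Tmed7 read 1353, 1304 and 1330 units in XEN, against 732 units in ES. The XEN arrays agreed closely for Tmed7, but its difference was smaller, at 0.85 ± 0.24 (limma adjusted p = 0.0822). The mannose lectins Lman1 and Lman2, which carry glycoproteins out of the ER, had differences of 1.08 and 0.99. A dimmer Lman2 probe set gave -0.11, with XEN arrays on both sides of ES.

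The COPI step, with its coat subunits and the Golgi Arf GTPases, had a median of 0.79 over 12 tested genes. Each of the 12 had a positive difference, beside 53.0% of all tested probe sets. Each was also positive with quantile or median scaling, beside 50.9% and 47.6% of all. Copa, the alpha subunit, read 1748.5, 1594 and 1469 units in XEN, against 616 units in ES. It was the member of this step past the threshold, at 1.36 ± 0.26 (limma adjusted p = 0.0312). Of the 7 coat subunits, 6 had all XEN arrays above ES (85.7%, beside 39.0% of all tested probe sets). Copz1 was the exception, at 0.18, and the others had differences from 0.43 for Cope to 1.36 for Copa. Arf1, which recruits the coat, read 5376, 4558 and 4314 units in XEN, against 2732 units in ES, a difference of 0.79 ± 0.25 that did not pass (limma adjusted p = 0.105).

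Between ER and Golgi, the SNARE Stx5a read 471, 437.5 and 433 units in XEN, against 176 units in ES. The log2 difference was 1.30 ± 0.26 (limma adjusted p = 0.0348). Of 8 tested genes of tethering and fusion, Stx5a alone passed the threshold, and the step had a median of 0.72. Rab18, a GTPase of the ER and of lipid droplets, ran the other way with 954, 876 and 907 units in XEN, against 1272 units in ES. All 3 XEN arrays lay below ES for Rab18, but the difference of -0.48 ± 0.25 did not pass (limma adjusted p = 0.261). Sec22b, the SNARE partner of Stx5a, had a difference of 0.77 on its brightest probe set, and 1.55 on another that was called higher.

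At the end of the route, the 12 tested genes of exocytosis had a median of 0.14. Of these, 6 were positive and 6 negative (50% positive, beside 53.0% of all tested probe sets). Rab3il1, an exchange factor for Rab8, read 99.5, 87.5 and 91.4 units in XEN, against 34.1 units in ES. It passed the threshold narrowly, at 1.21 ± 0.27 (limma adjusted p = 0.0489), and it was called in 2 of 10 alternative fits. Stx3, a plasma membrane SNARE, read 1111, 1352 and 1562 units in XEN, against 677 units in ES (0.96, limma adjusted p = 0.0942). Stx2, another plasma membrane SNARE, stood just outside the threshold at 1.48 (limma adjusted p = 0.0572). Among the Rab3 GTPases of regulated secretion, Rab3a had a difference of -0.44 and Rab3d one of -1.11, with XEN arrays on both sides of ES for Rab3a and no call for either.

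Promoters of the members, 300 bases from 250 before to 50 after the annotated start, were taken from RefSeq (GRCm38.p6) for the 129 genes that had one. They were searched on both strands for letters known from human cells as response elements of the secretory pathway. The core of the unfolded protein response element, TGACGTGG, was present in 5 of 129 members (3.88%), beside 0.714% of 27025 genes and 1.21% of 5106 tested genes. All 5 were among the 56 secretory genes with a promoter, and 0 of 57 endocytic genes held it. These 5 stretches are shown because they are the members that held the core, 5' to 3' on the strand of the gene, with the motif or its reverse complement in capitals.
Arf1 (chr11:59228219-59228266, minus strand): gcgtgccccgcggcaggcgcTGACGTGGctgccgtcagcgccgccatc
Copb1 (chr7:114254681-114254728, minus strand): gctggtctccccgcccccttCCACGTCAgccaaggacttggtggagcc
Copb2 (chr9:98563704-98563751, plus strand): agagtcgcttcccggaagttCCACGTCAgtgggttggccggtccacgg
Sec23a (chr12:59011984-59012031, minus strand): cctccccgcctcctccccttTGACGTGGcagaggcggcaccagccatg
Stx5a (chr19:8741413-8741473, plus strand): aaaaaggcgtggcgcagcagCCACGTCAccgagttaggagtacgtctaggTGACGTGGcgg
Stx5a, called higher, held the core on both strands, at 9 and 39 bases after its start. Arf1, Copb1, Copb2 and Sec23a had positive differences of 0.79, 0.82, 0.47 and 0.95, none past the threshold. Of all tested secretory genes 76.7% had a positive difference, and the motif was chosen after the values were seen. The longer ER stress response element (CCAAT and CCACG with 9 bases between them) was in 0 of 129 members, beside 0.137% of all genes. A match is only a run of letters, and nothing was measured on binding.

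**Figure D2:**
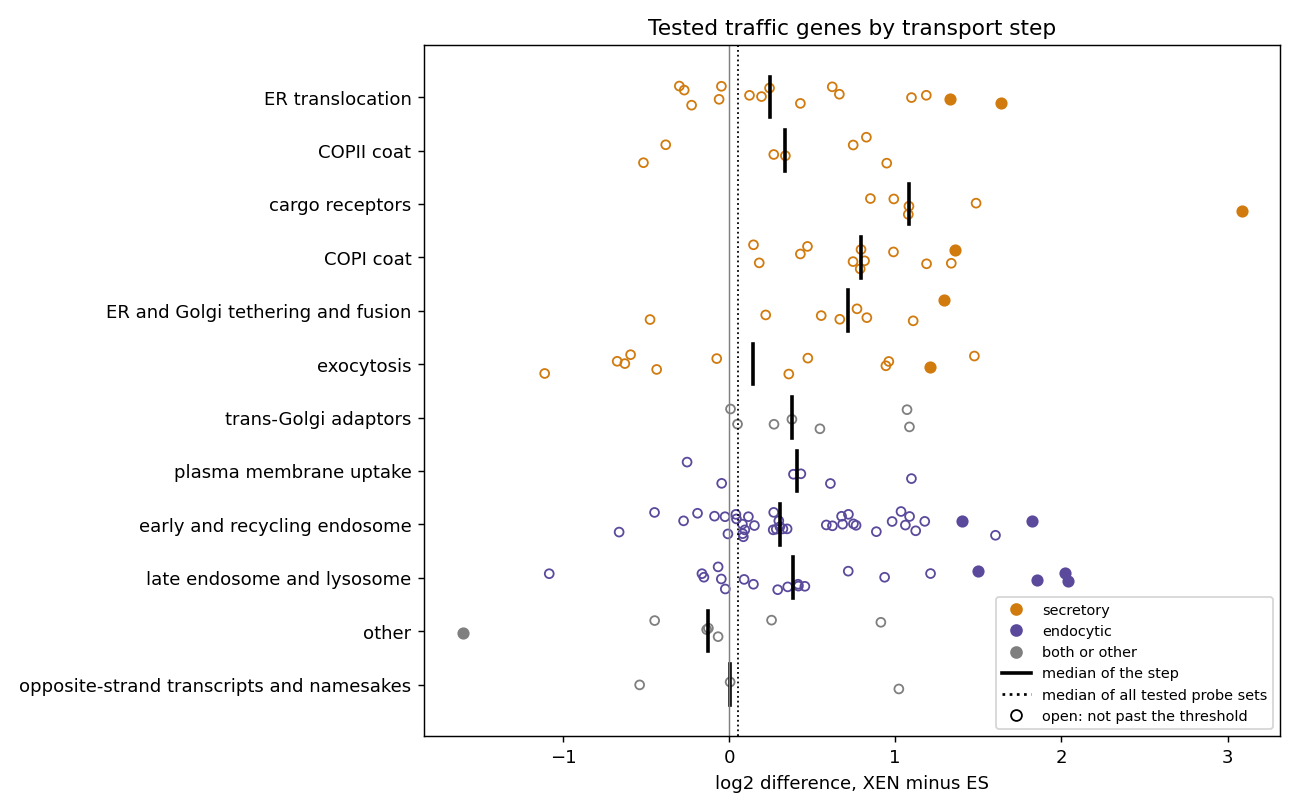
Log2 difference, XEN minus ES, of each tested traffic gene by transport step, with secretory steps at the top, coloured by route. Filled points are past the threshold, bars are step medians and the dotted line is the median of all tested probe sets (0.05). Cargo receptors and the COPI step have the highest medians, at 1.08 and 0.79, and Tmed3 is the point farthest to the right.

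The endocytic route began with 6 tested genes of plasma membrane uptake. Limma called 0 of the 6. Before adjustment 1 was higher (limma p under 0.05; 16.7%, beside 15.1% of all tested probe sets) and 0 were lower (beside 14.5%). Snx9, a sorting nexin that acts with dynamin at coated pits, read 564, 430 and 527 units in XEN, against 230 units in ES. The groups did not overlap, and the difference of 1.10 ± 0.29 missed the threshold (limma adjusted p = 0.0668). The clathrin adaptor AP-2 had a median of 0.41 over 4 tested subunits. Its cargo-binding subunit Ap2m1 read 1613, 1304 and 1161 units in XEN, against 995.5 units in ES (0.43, limma adjusted p = 0.371).

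Early and recycling endosomes had the most genes, 39 tested, with a median of 0.31. Limma called 2 higher (5.13%, beside 5.58% of all tested probe sets) and 0 lower (beside 5.05%). The share called higher was thus near that of all probe sets. Rab11fip5, which links Rab11 to recycling vesicles, read 222, 299 and 217 units in XEN, against 61.2 units in ES. Its difference was 1.82 ± 0.31 (limma adjusted p = 0.0234). Its partners Rab11a and Rab11b had smaller differences, 0.76 and 0.35, and neither passed.

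Snx12, a small sorting nexin that binds phosphoinositides, read 262, 236.5 and 259 units in XEN, against 88.9 units in ES (1.40 ± 0.26, limma adjusted p = 0.0305). A second Snx12 probe set gave -0.05, so the probe sets for this gene disagree. Its close paralog Snx3 read 2411, 2892 and 2903 units in XEN, against 2175 units in ES (0.32, limma adjusted p = 0.441). Rab31, a GTPase of the Rab5 group, had a difference of 1.60 but varied from 193 to 351 units in XEN, against 76.5 units in ES, and stood just outside the threshold (limma adjusted p = 0.0553).

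The genes named Rab had 34 tested members, of the secretory and endocytic routes and of neither, with a median of 0.33. They are the GTPases, some of their partners, and Rab10os, Rab26os and Rab5if, which match only by name. Of the 34, 20 were above ES on all XEN arrays (58.8%, beside 39.0% of all tested probe sets). Below it on all XEN arrays were 5 (14.7%, beside 34.0%). None of the Rab GTPases of early and recycling endosomes passed the threshold, and close paralogs read differently. Of the Rab5 proteins, which set up early endosomes, Rab5a read 656, 586 and 588 units in XEN, against 574 units in ES, a difference of 0.09. Rab5b had a difference of 0.31. Rab5c read 222, 348 and 252 units in XEN, against 126 units in ES, a difference of 1.03 with no overlap between the groups. Of the Rab4 proteins of fast recycling, Rab4a had a difference of 0.89 and Rab4b one of 0.04. These differences between paralogs were not tested.

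Tethers that catch vesicles at their target gave no call. GARP, which receives vesicles from endosomes at the Golgi, had a median of 0.05 over 4 tested genes (-0.05 with median scaling), from -0.66 for Vps54 to 0.72 for Vps51. Limma called 0 of the 4. Before adjustment 1 was higher (limma p under 0.05, 25%, beside 15.1% of all tested probe sets) and 0 were lower (beside 14.5%). Vps16 and Vps41 of the HOPS tether of lysosomes had differences of -0.07 and -0.02. AP-3, the adaptor for lysosome-related organelles, had a median of 0.12 over 4 tested subunits. Limma called 0 of them, with 0 before adjustment (beside 15.1% of all tested probe sets higher and 14.5% lower).

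Retromer returns receptors from endosomes to the Golgi. The 4 tested genes of its core (Vps26a, Vps26b, Vps29 and Vps35) had a median of 0.12, and only Vps35 had all XEN arrays above ES. The 4 sorting nexins that work with it in mammals (Snx1, Snx2, Snx5 and Snx6) had a median of 1.07. All 4 had every XEN array above ES, beside 39.0% of all tested probe sets. Limma called 0 of these 8 genes, and the difference between core and sorting nexins was not tested. At an unadjusted p under 0.05, 3 of the sorting nexins and 0 of the core genes were higher, beside 15.1% of all tested probe sets. Snx6 came nearest, with 1481, 1910 and 1373 units in XEN, against 689 units in ES (1.18, limma adjusted p = 0.0607).

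The late endosome and lysosome step had 20 tested genes and a median of 0.38. Of these, 4 were higher in XEN (20%, beside 5.58% of all tested probe sets) and 0 lower (beside 5.05%). Vamp8, a SNARE that fuses late endosomes, read 726, 986 and 723 units in XEN, against 187 units in ES. The difference was 2.04 ± 0.30 (limma adjusted p = 0.0173), and its second probe set was also called, at 1.94. Both sets carry the array maker's mark for probes shared within a sequence family. Stx7, a partner of Vamp8 in late endosome fusion, read 460, 736 and 631 units in XEN, against 205 units in ES. At 1.5 ± 0.34 it had the highest adjusted p among the calls (limma adjusted p = 0.0492), and 1 of 10 alternative fits called it. The other SNAREs of this complex, Stx8 and Vamp7, had differences of 0.42 and 0.94, with all XEN arrays above ES.

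The other 2 genes past the threshold in this step belong to ESCRT-I, which sorts ubiquitin-tagged receptors into the interior of late endosomes. Vps37b read 97.3, 82.9 and 86.9 units in XEN, against 14 units in ES, under the limit. It was at least 3.25-fold higher in XEN (limma adjusted p = 0.0148). Vps37c read 582, 464 and 532 units in XEN, against 137 units in ES (1.85 ± 0.28, limma adjusted p = 0.0173). These are alternative subunits of the complex. Vps37a stayed under the limit on all arrays, and the shared subunit Vps28 had a difference of -0.16 with all XEN arrays just below ES. Among the GTPases of the step, Rab7 had a difference of 1.21 and Rab9 one of -1.08, and neither passed.

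The core of the lysosomal gene motif known as CLEAR, TCACGTGA, reads the same on both strands. It was present in 8 of 129 members (6.20%), beside 1.12% of 27025 genes and 2.31% of 5106 tested genes. Of the 8, 6 were among 57 endocytic genes and 2 among 56 secretory genes. They are shown for comparison with the secretory set above, again on the strand of the gene, with the core in capitals. Vps26a has 2 annotated starts with 1 match each.
Rab21 (chr10:115315595-115315642, minus strand): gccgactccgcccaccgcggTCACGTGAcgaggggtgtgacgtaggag
Rab24 (chr13:55321952-55321999, minus strand): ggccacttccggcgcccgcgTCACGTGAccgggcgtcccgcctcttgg
Rab5a (chr17:53479118-53479165, plus strand): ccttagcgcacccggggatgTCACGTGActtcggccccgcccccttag
Sec23ip (chr7:128744796-128744843, plus strand): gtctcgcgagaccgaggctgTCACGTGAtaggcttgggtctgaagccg
Sec62 (chr3:30792823-30792870, plus strand): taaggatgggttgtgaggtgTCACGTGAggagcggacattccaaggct
Stx6 (chr1:155158597-155158644, plus strand): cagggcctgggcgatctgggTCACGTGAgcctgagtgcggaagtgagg
Vps16 (chr2:130424281-130424328, plus strand): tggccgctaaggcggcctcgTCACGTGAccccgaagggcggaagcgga
Vps26a (chr10:62486723-62486770, minus strand): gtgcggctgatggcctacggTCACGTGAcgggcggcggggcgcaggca
Vps26a (chr10:62486961-62487008, minus strand): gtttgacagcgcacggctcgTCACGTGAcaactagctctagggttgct
The log2 differences of these genes ran from 1.64 for Sec62, the only one called, to -0.27 for Stx6. Rab21 had 0.98, Sec23ip 0.75 and Rab24 0.72, while Rab5a, Vps26a and Vps16 lay at 0.09, 0.08 and -0.07. Of the genes called in the late endosome step, none held the core, and Vps37b was without a promoter in the table.

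**Figure D3:**
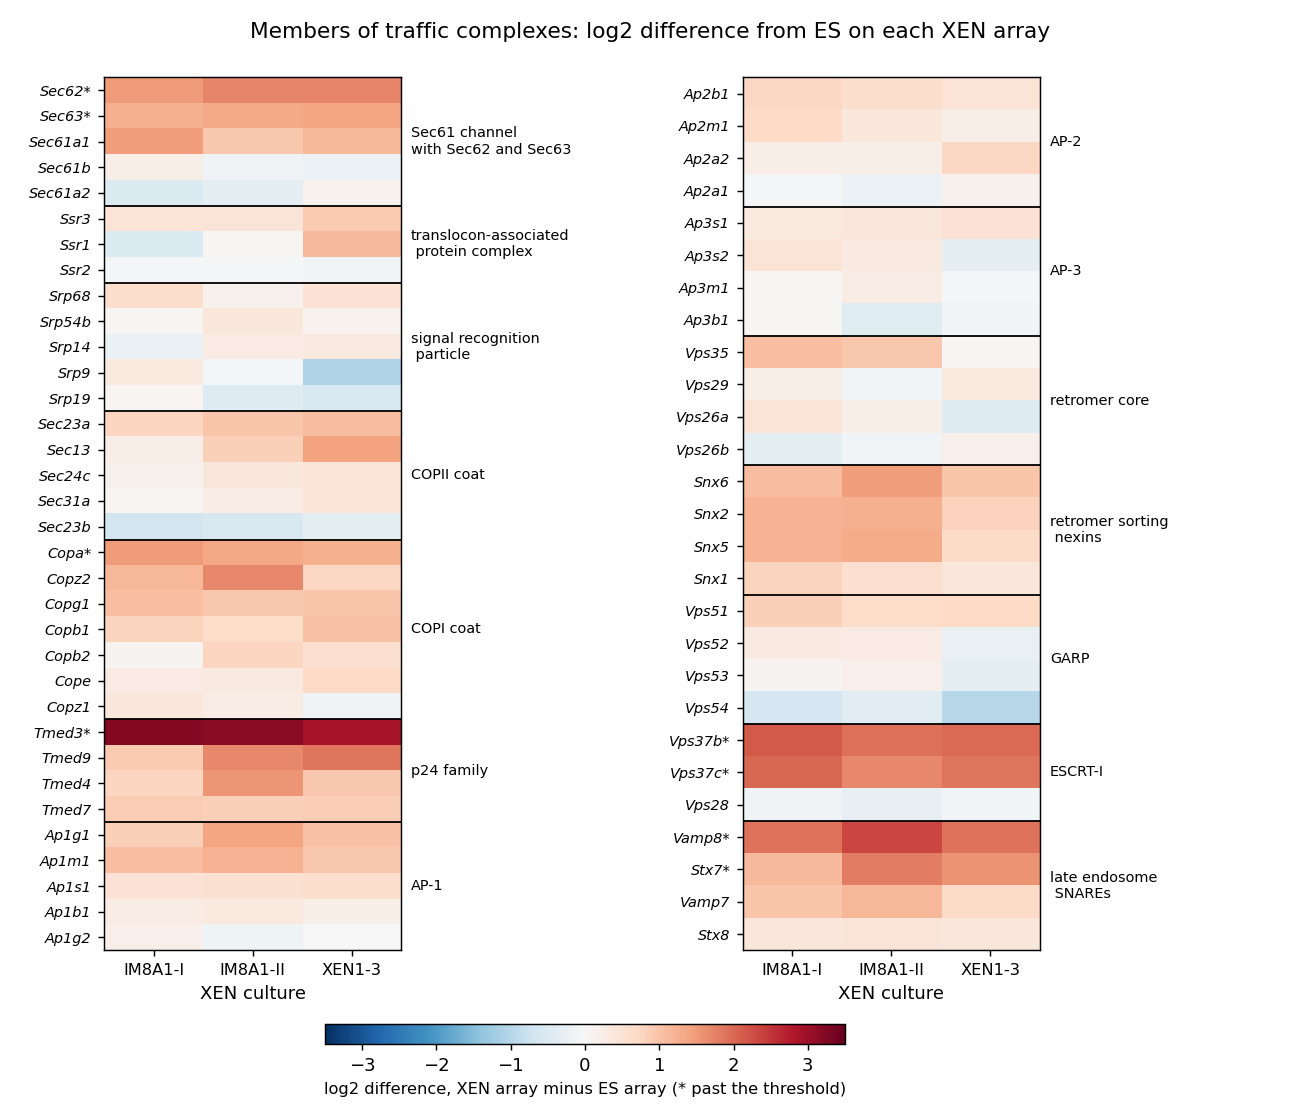
Log2 difference from the ES array on each of the 3 XEN arrays for the tested members of 14 complexes, as a colour scale, with asterisks at genes past the threshold. In late endosome SNAREs, retromer sorting nexins and the p24 family every tile is above 0, and the signal recognition particle and the retromer core have tiles on both sides of 0.

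The adaptors and the genes that belong to both routes or to neither gave 1 call, which was lower. AP-1, the adaptor between the trans-Golgi network and endosomes, had a median of 0.55 over 5 tested genes. Limma called 0 of the 5. Before adjustment 2 were higher (limma p under 0.05, 40%, beside 15.1% of all tested probe sets) and 0 lower (beside 14.5%). Its medium subunit Ap1m1 read 340, 378 and 309 units in XEN, against 157 units in ES (1.07, limma adjusted p = 0.0627), and its small subunit Ap1s1 had a difference of 0.55. A dimmer probe set for Ap1g1, the gamma subunit, was called higher, at 1.70. A dimmer Ap1b1 probe set read 13.9, 34.2 and 47.4 units in XEN, against 65.3 units in ES. Its difference of -0.93 did not pass, and the brightest Ap1b1 probe set gave 0.27, so the probe sets for Ap1b1 disagree in direction.

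Sec14l1 was the one member called lower in XEN. It is a lipid-binding protein named for a yeast gene and is not a part of a vesicle coat. It read 98.2, 109 and 70.4 units in XEN, against 298 units in ES (-1.60 ± 0.33, limma adjusted p = 0.0368). Its second probe set had a difference of -0.48 and did not pass. Vps72, another namesake, is a subunit of a chromatin complex and had a difference of -0.45. Of the transcripts that match only by name, Rab10os, from the opposite strand of Rab10, had a difference of 1.02 (limma adjusted p = 0.0832) and Rab5if one of 0.01. Rab26os, from the opposite strand of Rab26, had a difference of -0.54 with all 3 XEN arrays below ES (limma adjusted p = 0.358).

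The routes were compared by description, since genes are not replicates. Of 60 tested secretory genes, 6 were higher (10%, beside 5.58% of all tested probe sets) and 0 were lower (beside 5.05%). All XEN arrays lay above ES for 41 of them (68.3%, beside 39.0% of all tested probe sets). Of 65 tested endocytic genes, 6 were higher (9.23%), 0 were lower and 40 (61.5%) had all XEN arrays above ES. By limma at an unadjusted p under 0.05, 25 secretory genes were higher (41.7%) and 0 lower, and 17 endocytic genes were higher (26.2%) and 1 lower, beside 15.1% of all tested probe sets higher and 14.5% lower. The median log2 difference was 0.66 for secretory and 0.35 for endocytic genes. It was 0.75 for the secretory genes without exocytosis.

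The order of the routes was alike on the 3 XEN arrays, which share the ES array. The secretory median was 0.53, 0.60 and 0.70 in the 3 cultures. The endocytic median was 0.30, 0.42 and 0.41. The gap between the routes was thus 0.18 to 0.30, while the middle 50% of the secretory genes alone spanned 0.14 to 1.01. Without XEN1-3 the gap of the fitted medians was 0.16, against 0.32 with all 3 cultures.

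**Figure D4:**
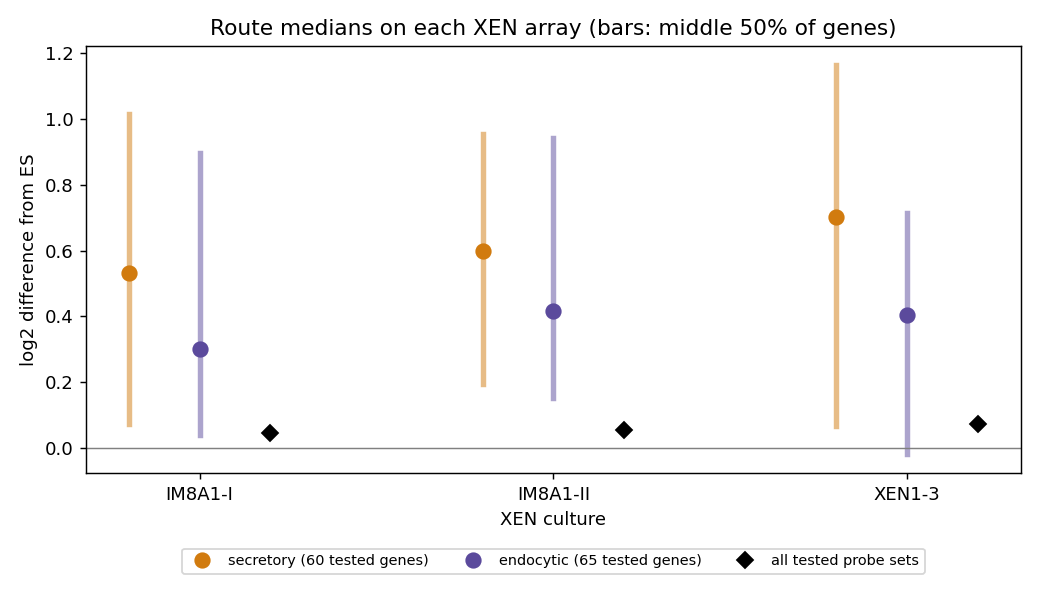
Median log2 difference from ES of the secretory and endocytic genes on each XEN array, with bars over the middle 50% of the genes, and of all tested probe sets as diamonds. The secretory medians (0.53 to 0.70) lie above the endocytic ones (0.30 to 0.42) on each array, and the bars overlap.

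In addition, 3 lists of other traffic genes, which the families above do not cover, were read in the same way. Of 48 tested partners of the secretory route, 6 were higher (12.5%, beside 5.58% of all tested probe sets) and 0 were lower (beside 5.05%), with a median of 0.68. Kdelr3, a receptor that returns ER proteins from the Golgi, read 2158, 1299 and 1572 units in XEN, against 110.5 units in ES (3.77 ± 0.35, limma adjusted p = 0.00596). Arcn1, the delta subunit of COPI, read 461, 405 and 554 units in XEN, against 44.6 units in ES (3.12 ± 0.30, limma adjusted p = 0.00596). Arfgef1, an exchange factor for Arf GTPases, had a difference of 1.78 (limma adjusted p = 0.0237), and Surf4, a cargo receptor of the ER, one of 1.33 (limma adjusted p = 0.0304). The calls on Arfgap3 and Stxbp2 were also higher.

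Of 41 tested partners of the endocytic route, 2 were higher (4.88%, beside 5.58% of all tested probe sets) and 1 was lower (2.44%, beside 5.05%), with a median of 0.26. These shares were near or under the background. Dab2, the adaptor for megalin and related receptors, was higher at 5.74 (limma adjusted p = 0.00596), and it is also one of the endoderm markers. Aak1, a kinase of AP-2, was higher at 1.46 (limma adjusted p = 0.0367). Sh3gl3, an endophilin, read 2.70, 6.40 and 5.80 units in XEN, all under the limit, against 125 units in ES. It was at least 4.57-fold lower in XEN (limma adjusted p = 0.0112). Chmp2b of ESCRT-III had a difference of 1.44 that did not pass (limma adjusted p = 0.0684). Its paralog Chmp2a ran the other way, at -1.29, and did not pass either. The other tested Chmp genes lay from -0.11 for Chmp4b to 0.54 for Chmp6.

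Of 10 tested genes of the Rab and SNARE cycle, limma called 0 higher (beside 5.58% of all tested probe sets) and 1 lower (10%, beside 5.05%). Before adjustment 0 were higher (limma p under 0.05, beside 15.1%) and 2 lower (20%, beside 14.5%). Rabggta, a subunit of the enzyme that adds lipid anchors to Rab proteins, read 68.5, 46.9 and 67.8 units in XEN, against 199 units in ES (-1.57 ± 0.32, limma adjusted p = 0.0370). The next in order of p were Arl3 at -1.05, Arl1 at 0.67 and Napa at 0.59, none past the threshold.

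Between the XEN cultures, the arrays were compared without a test. Over the 142 tested members the median distance between the highest and lowest XEN array was 0.48 on the log2 scale, beside 0.51 for all tested probe sets. IM8A1-II, on plastic in serum, and IM8A1-I, on gelatin, were at least 2-fold apart (a difference of 1 on the log2 scale) for 2 of 121 members that reached 84.7 units on 1 of the arrays (1.65%, beside 4.98% of all such probe sets). Rab3ip, another exchange factor for Rab8, had 195 units in IM8A1-II against 72.8 units in IM8A1-I. Rab11a had 1435 units in IM8A1-II against 699 units in IM8A1-I. Both were higher in IM8A1-II. Rab3a and Snx14 followed at 0.94 and 0.91, with signals 2.05 and 2.06 times those in IM8A1-I. On the other side stood Lman1 at -0.86, Rab28 at -0.75, Stx2 at -0.73 and Sec61a1 at -0.51.

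XEN1-3 and IM8A1-I were different lines in the same medium. They differed by at least 1 on the same log2 scale for 6 of 119 members (5.04%, beside 8.54% of all such probe sets), 3 in each direction. Ssr1, a subunit of the translocon-associated complex, had 517 units in XEN1-3 against 160 units in IM8A1-I. Sec13, of the outer COPII layer, had 1355 units in XEN1-3 against 601 units in IM8A1-I. Snx14 was also higher in XEN1-3, by 1.16. On the lower side, Srp9 of the signal recognition particle had 120 units in XEN1-3 against 337 units in IM8A1-I, and Snx10 and Ap4s1 had differences of -1.36 and -1.35. Tmed9 at 0.94 and Vps35 at -0.998 came next, with signals 1.96 and 0.499 times those in IM8A1-I. Both comparisons share the IM8A1-I array, and the fluidics message on XEN1-3 belongs to 1 of the arrays compared.

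**Figure D5:**
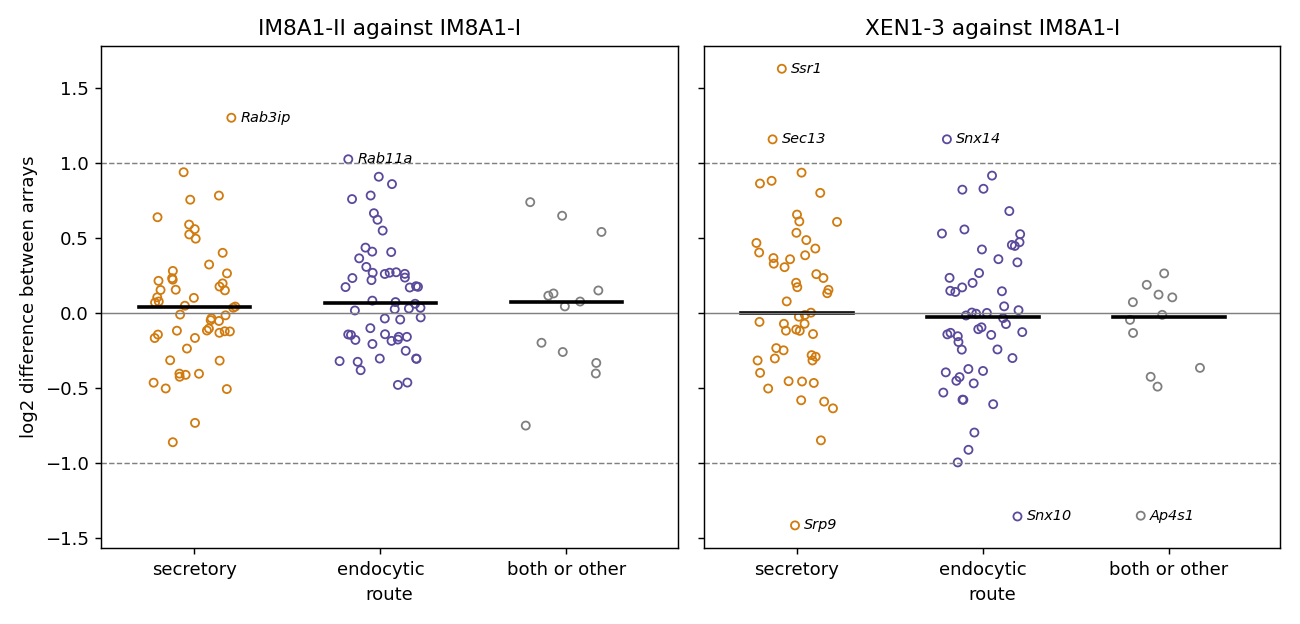
Log2 difference of IM8A1-II (left) and XEN1-3 (right) from IM8A1-I for members that reached 84.7 units on 1 of the arrays, by route. Bars are medians, and dashed lines stand at a difference of 1 in either direction. The named genes are the 2 members past these lines on the left and the 6 on the right.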

How the data were processed

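The authors deposited 1 intensity value for each of 12488 probe sets and 4 arrays, on a linear scale. For the summarising software, no name is given in these sources. Arrays already had a 2% trimmed mean near 150.09 and were rescaled to a common one. With 66 control probe sets left out, 10.5 units (25th percentile) were added, log2 was taken, and 8582 probe sets with 27.3 units (40th percentile) on 1 array or more were fitted with limma 3.58.1 in R 4.3.3 (lmFit, eBayes with a variance trend, 2 residual and 3.76 prior degrees of freedom). The spread comes from the XEN cultures alone and is taken to hold for the ES culture, and 2 of the 3 XEN cultures are the same line, so p-values measure the spread between these cultures. The number of arrays limits the precision. Per the file headers, run records gave chip lot and messages, which were read as text.

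Symbols came from the platform annotation, which can be old. All 155 gene IDs were found in RefSeq (GRCm38.p6), 48 genes had several probe sets, and 6 probe sets that carried several symbols were not used. Where ES lay under the limit, the fold is the geometric mean of XEN over the limit, and the reverse for a gene lower in XEN. The members, routes and lists were chosen with earlier results of these data known. Complexes, motifs and the routes of Rab10os, Rab26os and Rab5if were set after the values were seen. Genes named were all members past the threshold, those with the smallest p or highest mean signal in a step, the 4 largest differences in each within-XEN comparison and direction, and up to 4 partners with the smallest p in a list. Paralogs, complex members and genes just outside the threshold were added after their values were seen. Alternatives were leaving out each XEN culture, another offset, no filter, raising values to the limit, quantile or median normalization, no variance trend, counting each line once, every probe set of the members, and the secretory route without exocytosis. The fit was also run on simulated data, in which all arrays had the same independent spread. That run cannot show how the fit behaves with a single ES culture of unknown spread or with XEN cultures that share a line. Figures were drawn with matplotlib 3.10.9.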

Additional observations from a re-analysis of the deposited data

How the results depend on the processing

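The counts of members higher (12) and lower (1) in XEN were the results that moved most. Leaving out 1 XEN culture at a time gave 2 to 23 higher and 0 to 1 lower, with 1 to 10 secretory and 1 to 12 endocytic genes higher. Medians were then 0.54 to 0.69 for the secretory and 0.38 to 0.42 for the endocytic route. With each line counted once, 6 members were higher, 2 of them secretory, and 0 lower (limma; 4.23% of members higher, beside 4.06% of all). No member was called lower with no filter (0) or with values raised to the limit (0). Counting every probe set gave 19 higher, 11 of them secretory, and an endocytic median of 0.42. Median scaling moved the median of all probe sets to -0.04 and the route medians to 0.57 and 0.25. An offset of the 50th percentile gave a secretory median of 0.54. The share of members with a positive difference was 69.0% to 79.4% over all alternatives, beside 47.6% to 54.9% of all probe sets, and the secretory median was above the endocytic one in each. Of 410 values for the 41 named members, 365 kept their side of the threshold, 42 lost the call and 3 gained one. The sign changed in 13 of the 365, for Ap4s1, Rab28, Rab5if, Snx10, Snx14, Srp9 and Ssr1, none of them called (values from -0.24 to 0.16). Each fit that left out 1 XEN culture held 1 array fewer, and without XEN1-3 the spread came from the IM8A1 line alone. Why the counts differed between these fits was not tested. No paired analysis was possible because the labels pair no XEN culture with the ES culture. Genes near the limit of 27.3 units, such as Vps37b and Sec63 in ES, are known only as bounds there.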
